A study of Mus musculus with 24 samples.

Results

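Loss of beta-catenin in the stromal cells of the embryonic mouse kidney was examined at E13.5, where E counts embryonic days. The comparison rests on 6 of the 24 RNA-sequencing libraries of the series, chosen by genotype, strain and stage as labelled: 3 libraries of beta-catenin deficient stroma (SD) and 3 of wild-type stroma, all on the C57BL/6 background. For a side by side view it also uses 3 SD and 3 wild-type C57BL/6 libraries of E12.5, and 3 libraries with stabilised beta-catenin (SO) and 3 wild-type libraries of E13.5 on the CD1 background. The kidneys of all these groups are described as FoxD1Cre-eGFP, a transgene that marks the stromal lineage, and cells were dissociated with collagenase and isolated by fluorescence-activated sorting. The labels name no alleles for SD and SO, and strain goes with the mutant line. The record speaks of 3 kidneys per genotype but does not tie libraries to kidneys, animals or litters. A p-value here therefore reflects the spread among libraries, which may be technical.

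Beta-catenin joins cadherins to the cytoskeleton at cell contacts and is also the transducer of the canonical Wnt signal. Without Wnt, a complex built on Axin and APC marks it for destruction. When Wnt binds Frizzled receptors, which R-spondins and their Lgr receptors reinforce, beta-catenin enters the nucleus, binds TCF and LEF proteins and switches on target genes, many of which are feedback inhibitors such as Axin2. In the developing kidney the stroma surrounds the nephron progenitors and the ureteric tree, signals to both, and gives rise to interstitial fibroblasts, pericytes and smooth muscle.

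Levels are given as log2 CPM, the log2 of reads per gene scaled to a common library size after adding 0.5, so a difference of 1 is a doubling. Depth ran from 6.98 to 7.53 M reads (M, mega) in the SD libraries and from 7.08 to 9.2 in the wild-type libraries. Across genes, libraries correlated with r of 0.974 to 0.978 within SD, 0.964 to 0.973 within wild-type and 0.956 to 0.965 between them, and wild-type replicate 3 lay apart from the other 5 libraries on the second principal component (-51 against -7.32 to 27.9). Foxd1, the transcription factor gene that defines the cortical stroma, stood at 8.95, 8.74 and 8.92 in SD and 8.74, 8.77 and 8.78 in wild-type libraries, so the groups overlapped (adjusted p = 0.825, limma). The summed level of 21 cortical stroma markers was 9826 to 10280 CPM in SD and 9540 to 9783 CPM in wild-type libraries. Nephron progenitor genes summed to 1348 to 1505 CPM in SD and 1138 to 1144 CPM in wild-type libraries, and ureteric bud genes to 67.5 to 81.8 CPM in SD and 63.5 to 64.8 CPM in wild-type libraries. The nephron progenitor sum includes Meox1, Dkk1 and Sall1, which are described below as higher in SD. Carry-over of progenitors was not tested.

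Of 13803 genes tested, limma called 183 higher (1.33%) and 286 lower (2.07%) in SD at a Benjamini-Hochberg adjusted p under 0.05. The rises and falls differed in size. The 183 higher genes had a median log2 change of 0.651 and a median level of 5.58 log2 CPM, and 49 of them changed at least 2-fold. The 286 lower genes had a median change of -1.57 and a median level of 3.02 log2 CPM, and 175 of them changed at least 2-fold. Over all genes the median change was -3.59e-05. The groups did not overlap for 463 of the 469 called genes. With 3 libraries a group the call itself favours such genes, and the share over all genes was not computed, so this count is not separate evidence. With SD replicate 1 left out 244 genes were called, with SD replicate 3 left out 274, and with wild-type replicate 2 or 3 left out 258 or 257. The counts were 359 and 370 when SD replicate 2 or wild-type replicate 1 was dropped, and 60 of the higher and 100 of the lower genes were called whichever of the 6 libraries was left out.

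**Figure D1:**
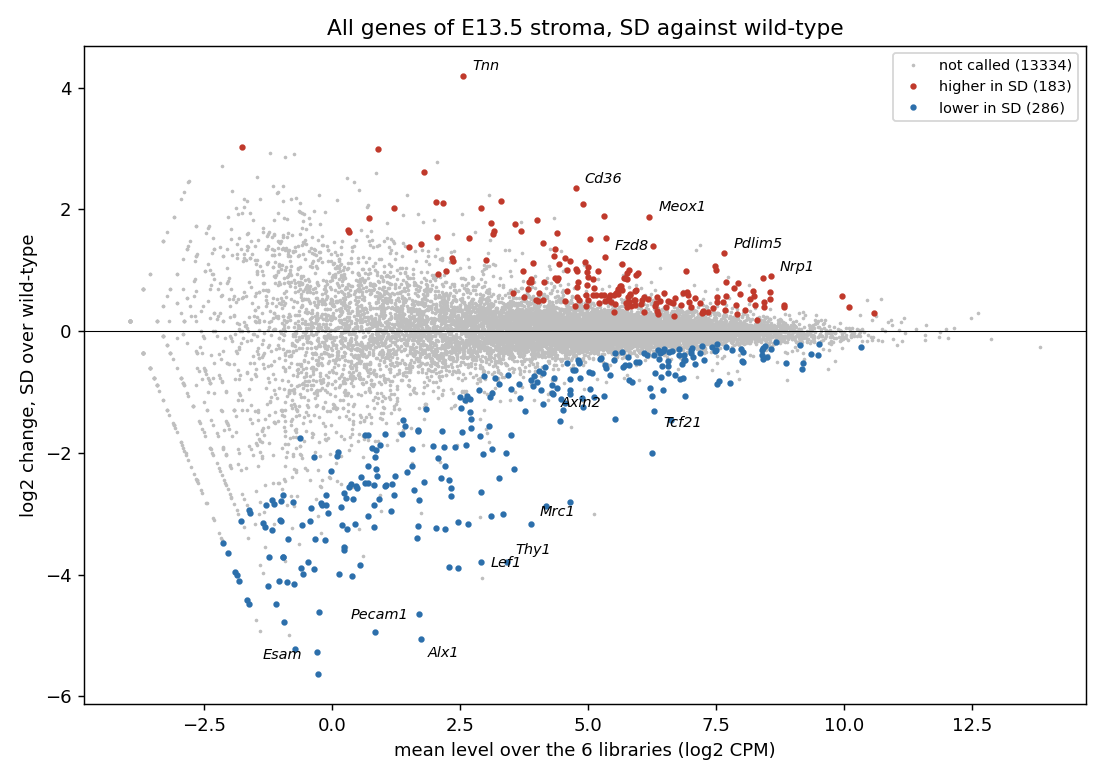
Log2 change of every gene, SD over wild-type at E13.5 (vertical axis), against its mean level over the 6 libraries in log2 CPM (horizontal axis). Red points are the 183 genes called higher in SD, blue points the 286 called lower and grey points genes not called; the lower genes reach larger changes and lower levels than the higher ones.

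Ctnnb1, which encodes beta-catenin (mm10 chromosome 9, 120929216 to 120960507), had 10.34, 10.36 and 10.38 log2 CPM in SD and 10.54, 10.52 and 10.51 in wild-type libraries. All 3 SD libraries lay below the wild-type libraries, but the difference of -0.16 did not pass the test (adjusted p = 0.205). A value over the whole gene does not show a deleted exon, so it does not by itself check the genotype labels.

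Target and feedback genes of canonical Wnt signalling were mostly lower where they were called. Of 31 such genes in the file, 7 fell and 1 rose in SD, with a median change of -0.12 over the 31. Over all genes 2.07% were called lower and 1.33% higher, and these shares are the background for every list count of SD at E13.5 below. Lef1, the transcription factor that carries beta-catenin to DNA (chromosome 3, 131110471 to 131224356), had 0.62, 1.82 and 0.66 log2 CPM in SD, against 5.11, 4.76 and 4.59 in wild-type libraries. Its levels in SD rested on 11, 24 and 11 reads, and the groups were far apart. Tcf7, a second factor of the same family (chromosome 11, 52252371 to 52283014), had 2.07, 2.68 and 1.75 log2 CPM in SD, against 3.89, 4.18 and 4.23 in wild-type libraries. That is a fall of 1.93 ± 0.31 (log2, SE), or 3.82-fold (adjusted p = 0.000797). Axin2, the feedback scaffold of the destruction complex (chromosome 11, 108920349 to 108950783), had 3.89, 4.0 and 3.48 log2 CPM in SD, against 4.94, 4.86 and 4.60 in wild-type libraries, a 2.01-fold fall with no overlap. Apcdd1, a membrane inhibitor of Wnt receptors (chromosome 18, 62922231 to 62961179), had 4.44, 4.31 and 5.01 log2 CPM in SD, against 5.68, 5.84 and 5.46 in wild-type libraries, and fell 2.11-fold (adjusted p = 0.000983). SD replicate 3 came closest to the wild-type range.

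The other 3 falls of this list were Tnfrsf19, a membrane receptor of the TNF receptor family (-1.64 ± 0.41, adjusted p = 0.0235), the planar polarity gene Prickle1 (-0.55 ± 0.13, 0.0207) and the receptor gene Fzd7 (-0.43 ± 0.10, 0.0145). Dkk1, a secreted Wnt antagonist that binds the co-receptor, went the other way. It had 6.42, 6.11 and 6.82 log2 CPM in SD, against 5.13, 5.65 and 5.72 in wild-type libraries, 1.94-fold higher in SD (adjusted p = 0.0131). Nkd1, an intracellular Wnt inhibitor, had 5.77, 5.68 and 5.76 log2 CPM in SD and 5.96, 6.14 and 6.16 in wild-type libraries, a difference that did not pass the test (-0.35 ± 0.13, adjusted p = 0.145). The calls of Lef1, Axin2, Tcf7 and Apcdd1 held whichever library was left out. That of Tnfrsf19 ended without any of 5 libraries, all but SD replicate 2 (adjusted p up to 0.136), that of Prickle1 without replicate 1 or 2 of either group (up to 0.0965), that of Fzd7 without wild-type replicate 2 or either of SD replicates 1 and 2 (up to 0.0775), and that of Dkk1 without wild-type replicate 1 or SD replicate 3 (up to 0.0959).

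The stretches upstream of 4 of these genes are shown because they hold the letters that TCF and LEF proteins are known to bind. RefSeq sequences 250 bases before to 50 after each annotated start (GRCm38.p6) were searched on both strands for CTTTG followed by a pair of letters that were each A or T. The windows of Axin2 and Tcf7 and both windows of Prickle1 held none. Lef1 held 1 at an internal start and 0 at its other 3 starts, and Tnfrsf19 held 1 at an internal start and 0 at its other start. Each sequence below reads 5′ to 3′ on the gene's strand with matches in capitals; the first 3 are the 250 bases before the start, and that of Dkk1 is a 30-base stretch that lies before the RefSeq start and that GENCODE M21 places within an exon of the gene.
Lef1, internal start, chr3:131156044-131156293, plus strand: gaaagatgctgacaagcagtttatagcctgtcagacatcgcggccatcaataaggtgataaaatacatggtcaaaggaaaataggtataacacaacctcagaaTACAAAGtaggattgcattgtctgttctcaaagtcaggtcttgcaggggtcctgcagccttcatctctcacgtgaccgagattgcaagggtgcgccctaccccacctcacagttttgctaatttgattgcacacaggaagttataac
Tnfrsf19, internal start, chr14:61037988-61038237, minus strand: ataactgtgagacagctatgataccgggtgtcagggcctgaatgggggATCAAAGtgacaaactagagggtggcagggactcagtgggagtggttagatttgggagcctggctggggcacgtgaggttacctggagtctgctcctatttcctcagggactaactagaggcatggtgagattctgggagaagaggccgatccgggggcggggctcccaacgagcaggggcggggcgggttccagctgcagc
Fzd7, chr1:59481897-59482146, plus strand: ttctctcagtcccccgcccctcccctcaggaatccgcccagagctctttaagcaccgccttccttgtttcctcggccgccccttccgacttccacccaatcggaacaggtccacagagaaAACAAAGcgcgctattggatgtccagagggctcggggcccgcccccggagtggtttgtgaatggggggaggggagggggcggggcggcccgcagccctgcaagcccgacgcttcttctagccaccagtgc
Dkk1, chr19:30549586-30549615, minus strand: agCTTTGAAatcccatcccggCTTTGTTgt
The matches began 147 bases before the start in Lef1 (-147), 202 before it in Tnfrsf19 (-202), 130 before it in Fzd7 (-130) and at -117 and -98 in Dkk1. Across the file, 1448 of 10739 genes with a RefSeq window held at least 1 match. The share was 16.6% among genes lower in SD (35 of 211) and 13.9% among genes higher in SD (19 of 137). A match in a window is a description of its letters and not a bound site.

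Receptors and secreted parts of the pathway moved in both directions. Of 36 listed genes 4 were higher and 2 lower in SD (median change -0.02), beside 1.33% and 2.07% of all genes. Lgr4, a receptor for R-spondins (chromosome 2, 109917647 to 110014257), had 5.80, 6.27 and 5.91 log2 CPM in SD, against 6.99, 6.91 and 6.96 in wild-type libraries. It was 1.95-fold lower in SD (-0.96 ± 0.10, adjusted p = 6.02e-06), among the smallest p of the whole comparison. Its ligand gene Rspo3 went up, with 5.47, 5.64 and 5.29 log2 CPM in SD and 4.69, 4.60 and 4.17 in wild-type libraries (1.97-fold, adjusted p = 0.000491). Among the Frizzled receptors, Fzd8 had 5.90, 5.82 and 6.15 log2 CPM in SD and 4.87, 4.59 and 4.74 in wild-type libraries, 2.33-fold higher (adjusted p = 4.31e-05). Neither Rspo3 nor Fzd8 overlapped between the groups. Fzd5 (1.64 ± 0.40, adjusted p = 0.0214) and Fzd4 (0.60 ± 0.15, 0.0257) rose, and Fzd1 fell (-0.51 ± 0.13, 0.0263). Lgr4, Rspo3 and Fzd8 were called in every set of 5 libraries. The Fzd5 call ended without replicate 3 of either group (adjusted p up to 0.124), that of Fzd4 without replicate 2 or 3 of either group (up to 0.19), and that of Fzd1 without any of the 6 libraries in turn (up to 0.104).

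The next list held 29 genes of the destruction complex, the transcriptional complex and the adherens junction, where beta-catenin has its other role. Of these 3 rose and 0 fell (median 0.05), beside 1.33% and 2.07% of all genes. Ctnna2, a neural alpha-catenin, had 1.52, 1.25 and 2.20 log2 CPM in SD, against -0.10, -0.11 and -0.40 in wild-type libraries (3.62-fold higher, adjusted p = 0.016). Bcl9l, a co-activator that binds beta-catenin, was 1.24-fold higher (adjusted p = 0.0264), and Afdn, which links nectins to actin, 1.4-fold higher (0.0409). The call of Ctnna2 ended without replicate 3 of either group (adjusted p up to 0.104), and those of Bcl9l and Afdn without any of the 6 libraries in turn (up to 0.0964 and 0.21).

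**Figure D2:**
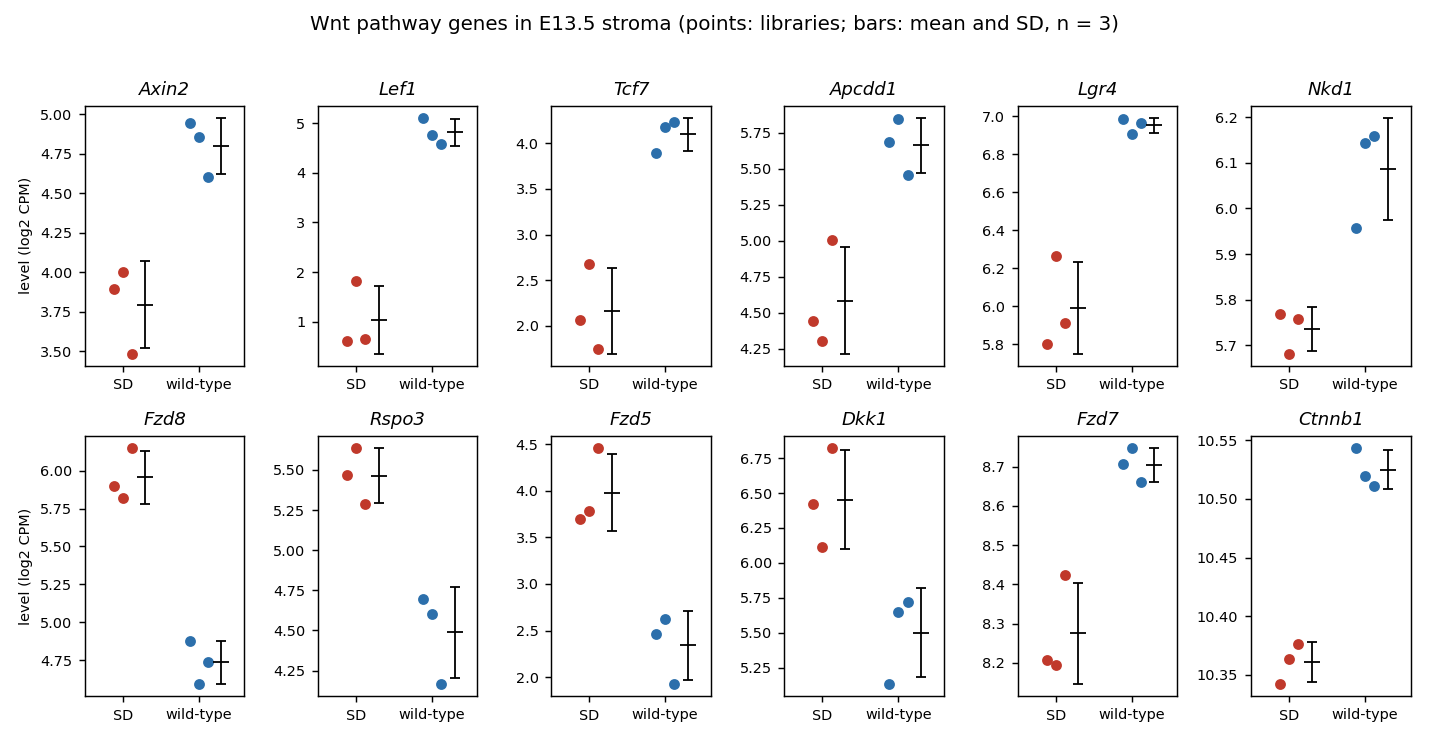
Levels of 12 Wnt pathway genes in log2 CPM (vertical axes, each with its own range) in the 3 SD and 3 wild-type libraries of E13.5; bars give the mean and SD. Axin2, Lef1, Tcf7, Apcdd1, Lgr4 and Fzd7 are lower in SD, Fzd8, Rspo3, Fzd5 and Dkk1 higher, and Nkd1 and Ctnnb1 are lower by amounts that did not pass the test.

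Outside the Wnt lists, the gene with the smallest p of all was Thy1, a cell surface glycoprotein of fibroblasts and neurons (chromosome 9, 44043384 to 44048579). It had 1.14, 1.33 and 2.11 log2 CPM in SD, against 5.26, 5.30 and 5.39 in wild-type libraries, a 13.8-fold fall (-3.79 ± 0.21, adjusted p = 8.35e-11). Alx1, a homeobox gene of mesenchyme (chromosome 10, 102998707 to 103030215), had 6, 7 and 1 reads in SD libraries, against 135, 190 and 151 in wild-type libraries. Mmp15, a membrane-bound matrix metalloproteinase (chromosome 8, 95352268 to 95375080), had 4.78, 4.80 and 4.85 log2 CPM in SD, against 6.28, 6.25 and 6.23 in wild-type libraries. The libraries of each group lay within 0.1 of each other, and the fall was 2.72-fold (adjusted p = 5.51e-07). Pdzrn3, a ubiquitin ligase with PDZ domains, fell 2.75-fold (adjusted p = 7.34e-06), with 5.85, 6.06 and 5.76 log2 CPM in SD and 7.46, 7.36 and 7.21 in wild-type libraries. The next falls by p were the membrane protein gene Atrnl1 (-0.87 ± 0.10), the lactate transporter gene Slc16a1 (-0.94 ± 0.11), the cytochrome P450 gene Cyp2s1 (-2.0 ± 0.25), the mannosyltransferase gene Tmtc4 (-1.06 ± 0.13), the phospholipase gene Plch1 (-1.24 ± 0.16) and the secreted protease gene Adamts17 (-1.30 ± 0.18), with adjusted p of 3.11e-05 to 0.000187. All 10 genes of this paragraph kept their calls whichever library was left out.

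On the rising side the smallest p belonged to Pdlim5, a PDZ and LIM domain protein of the actin cytoskeleton (chromosome 3, 142239590 to 142395696). It had 8.24, 8.39 and 8.30 log2 CPM in SD, against 7.16, 6.98 and 6.94 in wild-type libraries, 2.44-fold higher (1.29 ± 0.11, adjusted p = 2.12e-07). Meox1, a homeobox gene of paraxial mesoderm (chromosome 11, 101877510 to 101894374), had 7.23, 7.06 and 7.12 log2 CPM in SD, against 5.41, 5.44 and 4.92 in wild-type libraries, 3.68-fold higher (adjusted p = 3.16e-06). Neither gene overlapped between the groups. Among the other rises with a small p were the membrane protein gene Tmem132e (3.56-fold higher, adjusted p = 3.11e-05), the adhesion gene Chl1 of the L1 family (3.72-fold, 3.43e-05), the protocadherin gene Pcdh9 (3.06-fold, 6.1e-05) and the leucine-rich repeat protein gene Lrrn3 (3.41-fold, 0.000212). The calcification inhibitor gene Mgp had 7.11, 6.46 and 7.36 log2 CPM in SD, against 5.51, 5.63 and 5.59 in wild-type libraries, and SD replicate 2 was the lowest of its group. Scube1, a secreted and membrane-bound glycoprotein gene, was 2.01-fold higher (adjusted p = 7.48e-05), and Ppargc1a, a co-activator of mitochondrial genes, 4.32-fold higher (0.000166). Every gene of this paragraph was called in each set of 5 libraries.

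Other genes were named for the size of their change. Npr1, a receptor for natriuretic peptides, had 5.89, 5.77 and 6.21 log2 CPM in SD, against 3.82, 3.86 and 3.92 in wild-type libraries (4.25-fold, adjusted p = 0.000545). The junctional adhesion gene Jam2 had 3.40, 3.38 and 5.00 log2 CPM in SD, against 1.48, 2.35 and 1.88 in wild-type libraries, and the cannabinoid receptor gene Cnr1 had 2.20, 2.13 and 2.36 in SD, against 0.29, 0.05 and 0.30. For Jam2 the third SD library was well above the other 2, while the 3 libraries of Cnr1 were close together (4.07-fold and 4.05-fold higher in SD, adjusted p = 0.00239 and 0.00598). SD replicate 3 was also the highest SD library for the matrix protein gene Tnn (159, 118 and 331 reads in SD, 19, 6 and 11 in wild-type libraries), the fatty acid receptor gene Cd36 (383, 311 and 739 reads in SD, 92, 97 and 105 in wild-type libraries) and Actr3b, which encodes a part of an actin-nucleating complex (59, 38 and 105 in SD, 12, 11 and 10 in wild-type libraries). Among the large falls outside blood and vessel genes, Ednrb, the endothelin receptor B gene, had 4, 17 and 11 reads in SD and 132, 120 and 68 in wild-type libraries (9.45-fold lower, adjusted p = 0.000972). Rpl29, a ribosomal protein gene with near-identical transcripts at 35 other loci, fell 14.9-fold, and its value is uncertain because reads could be split between these loci.

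In the list of 21 cortical stroma markers 3 rose and 1 fell (median -0.01), beside 1.33% and 2.07% of all genes. Tcf21, a bHLH factor that kidney mesenchyme needs to develop (chromosome 10, 22817281 to 22820174), had 5.63, 5.62 and 5.69 log2 CPM in SD, against 6.85, 7.05 and 6.97 in wild-type libraries, 2.47-fold lower (-1.31 ± 0.20, adjusted p = 0.000645). The 3 SD libraries lay within 0.1 of each other and more than 1 below every wild-type library. Sall1, a zinc finger factor of progenitors and stroma (1.31-fold higher, adjusted p = 0.0165), the chemokine gene Cxcl12 (1.49-fold, 0.0201) and the matrix gene Ecm1 (1.44-fold, 0.0263) rose. Fat4, the stromal protocadherin gene that signals to nephron progenitors, had 8.25, 8.76 and 8.29 log2 CPM in SD and 9.13, 8.78 and 8.91 in wild-type libraries (-0.51, adjusted p = 0.0978), and Aldh1a2, which makes retinoic acid in cortical stroma, had 11.06, 10.83 and 10.91 in SD and 10.69, 10.79 and 10.85 in wild-type libraries (0.744). Among 20 medullary and ureteric stroma genes, Alx1 and Lef1 fell and the cell cycle inhibitor gene Cdkn1c rose (1.23-fold, adjusted p = 0.0432; median of the list 0.00). The Tcf21 call held in every set of 5 libraries, while those of Sall1 and Ecm1 each ended without any of 4 libraries (adjusted p up to 0.0812 and 0.145), that of Cxcl12 without any but wild-type replicate 1 (up to 0.0903), and that of Cdkn1c without any of the 6 (up to 0.19).

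Genes of retinoic acid handling shifted in several steps of the pathway. Of 18 listed, 4 were higher and 2 lower (median 0.09), beside 1.33% and 2.07% of all genes. Stra6, the receptor that takes up retinol (chromosome 9, 58063788 to 58153996), had 4.88, 4.96 and 4.49 log2 CPM in SD, against 5.74, 5.96 and 5.84 in wild-type libraries, 2.1-fold lower (adjusted p = 0.00115). Rdh10, which oxidises retinol on the way to retinoic acid, was 1.62-fold lower (adjusted p = 0.0082). Cyp26b1, which breaks retinoic acid down (chromosome 6, 84571414 to 84593908), had 5.84, 5.68 and 5.86 log2 CPM in SD, against 4.36, 4.41 and 4.07 in wild-type libraries, 2.86-fold higher (adjusted p = 0.00147). For these 3 genes the uptake gene and an oxidising gene were lower and the degrading gene higher, with no overlap between the groups. The list as a whole did not move in 1 direction. A positive change was measured for 10 of the 18 genes. Their summed level was 3689 to 4227 CPM in SD and 3318 to 3589 CPM in wild-type libraries. Aldh1a2, described above, overlapped between the groups. Retinoic acid itself was not measured. The receptor gene Rarg (1.37-fold, adjusted p = 0.0221), the binding protein gene Crabp1 (1.44-fold, 0.0392) and Ecm1 rose as well. Leaving out SD replicate 3 ended the Rdh10 call (adjusted p = 0.0674). The call of Rarg did not hold without SD replicate 1 or 3, or without wild-type replicate 2 (up to 0.133), and that of Crabp1 without any of the 6 libraries (up to 0.206).

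Other signalling pathways had few calls. In the GDNF and FGF list 1 of 25 genes rose and 0 fell (median 0.23): Etv5, an ETS factor induced by FGF and RET signals, was 1.54-fold higher (adjusted p = 0.00457). Its relative Etv4 had 6.79, 6.72 and 6.84 log2 CPM in SD and 5.99, 6.41 and 6.17 in wild-type libraries (0.59, adjusted p = 0.0836), and Fgf10, a ligand of mesenchyme, differed by 0.68 (0.137). The co-receptor gene Gfra2 differed by -1.02 (0.0521). Of 34 BMP and TGF-beta genes, the ligand gene Tgfb3 fell (-0.78 ± 0.14, adjusted p = 0.00252), with 6.40, 6.38 and 6.61 log2 CPM in SD and 7.33, 7.33 and 7.07 in wild-type libraries, and the BMP-binding protein gene Bmper rose (1.54-fold, 0.00571; median of the list 0.16). The Bmper call ended without wild-type replicate 3 (adjusted p = 0.052). In the Hedgehog list 0 of 11 genes passed (median 0.20), and the values nearest to a call were those of the co-receptor gene Boc (0.28, adjusted p = 0.198), the effector gene Gli3 (0.21, 0.437) and the co-receptor gene Cdon (0.32, 0.46).

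Fat3, an atypical cadherin, was the gene called among 19 of the Hippo and Fat-Dachsous list (median 0.05). It had 5.94, 6.28 and 6.17 log2 CPM in SD, against 4.89, 4.37 and 4.52 in wild-type libraries, 2.9-fold higher (adjusted p = 0.000495). In the Notch list 1 of 16 genes fell (median -0.06): Mfng, a glycosyltransferase that modifies Notch, had 0, 4 and 0 reads in SD, against 16, 20 and 26 in wild-type libraries. That call ended without any library but SD replicate 2 (adjusted p up to 0.131).

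Mural cells and smooth muscle descend from the stroma. Of 17 of their genes 3 rose and 2 fell (median 0.22), beside 1.33% and 2.07% of all genes. Myocd, the co-activator that drives smooth muscle genes, had 10, 15 and 20 reads in SD, against 59, 85 and 70 in wild-type libraries, 4.22-fold lower (adjusted p = 0.00145). Pdgfrb, the PDGF receptor of pericytes, had 9.03, 8.91 and 9.15 log2 CPM in SD, against 8.64, 8.57 and 8.65 in wild-type libraries, 1.32-fold higher (adjusted p = 0.0101). The proteoglycan gene Cspg4, also called NG2 (1.5-fold, adjusted p = 0.0435), and the potassium channel subunit gene Abcc9 (1.81-fold, 0.047) rose too. Gja4, a connexin of vessel walls, had 3 reads in SD and 63 in wild-type libraries in total, 18.5-fold lower at equal depth with an exact 95% counting interval of 6.05 to 92.2. The Myocd call held in every set of 5 libraries. Those of Pdgfrb ended without wild-type replicate 2 or the third SD library (adjusted p up to 0.0701), of Cspg4 without any but SD replicate 1 (up to 0.167), of Gja4 without any but SD replicate 3 (up to 0.135) and of Abcc9 without any of the 6 (up to 0.241).

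**Figure D3:**
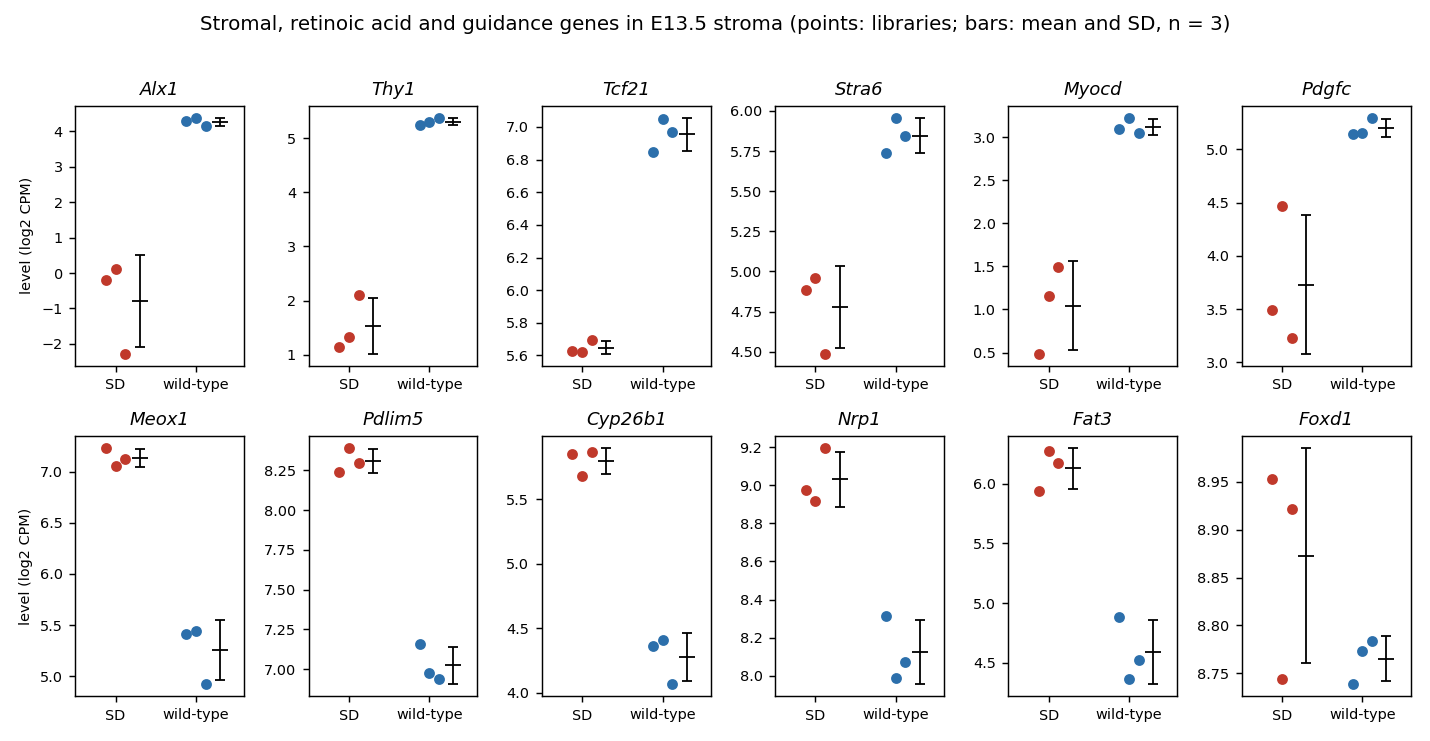
Levels of 12 stromal, retinoic acid, mural and guidance genes in log2 CPM (vertical axes, each with its own range) in the 3 SD and 3 wild-type libraries of E13.5; bars give the mean and SD. Alx1, Thy1, Tcf21, Stra6, Myocd and Pdgfc are lower in SD, Meox1, Pdlim5, Cyp26b1, Nrp1 and Fat3 higher, and the groups overlap for Foxd1.

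Of 40 guidance genes, 6 rose and 3 fell (median 0.08), beside 1.33% and 2.07% of all genes. Nrp1, a co-receptor for class 3 semaphorins and VEGF (chromosome 8, 128358604 to 128503363), had 8.98, 8.92 and 9.20 log2 CPM in SD, against 8.31, 7.99 and 8.07 in wild-type libraries, 1.87-fold higher (adjusted p = 6.02e-06). Its partner receptor gene Plxna2 was 2.16-fold higher (adjusted p = 0.000212). Meanwhile 2 of the ligands for such receptors fell: Sema3a had 5.31, 5.44 and 5.59 log2 CPM in SD, against 6.42, 6.19 and 6.25 in wild-type libraries (1.79-fold lower, adjusted p = 0.0209), and Sema3e had 2 reads in SD and 55 in wild-type libraries in total (24.2-fold lower at equal depth, exact 95% counting interval 6.4 to 205). Of the other families, the receptor genes Epha4 (1.83-fold, adjusted p = 0.00115) and Ephb2 (1.4-fold, 0.0114), the secreted ligand gene Slit3 (1.97-fold, 0.00145) and the contactin-associated gene Cntnap5b rose, and the adhesion gene Cntn1 fell (-1.56 ± 0.40, 0.0306). Cntnap5b had 29, 39 and 48 reads in SD and 2, 7 and 8 in wild-type libraries. The Sema3a call ended without any library but SD replicate 3 (adjusted p up to 0.103), that of Ephb2 without wild-type replicate 3 or SD replicate 1 (up to 0.0671), and that of Cntn1 without any but SD replicate 2 (up to 0.186).

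Of 20 secreted factors that act on vessels and blood cells, 1 was higher and 2 were lower (median -0.12), beside 1.33% and 2.07% of all genes. Their summed level was 1605, 1671 and 1727 CPM in SD, against 1365, 1284 and 1265 CPM in wild-type libraries. Abundant genes weigh most in such a sum. A positive change was measured for 5 of the 20 genes, so the higher sum does not describe most of the list. Pdgfc, a ligand for PDGF receptors, had 3.49, 4.47 and 3.23 log2 CPM in SD, against 5.14, 5.16 and 5.30 in wild-type libraries, 2.77-fold lower (adjusted p = 0.000731). Hgf, hepatocyte growth factor, was 1.84-fold lower (adjusted p = 0.0237), and Cxcl12 is the member that rose. Among 11 chemokine and cytokine genes 2 rose and 2 fell (median 0.74), beside the same shares of all genes. Ccl11, which encodes eotaxin, had 152, 124 and 211 reads in SD, against 47, 67 and 46 in wild-type libraries (3.38-fold higher, adjusted p = 0.00656), and Ptgs1, which makes prostaglandins, was 2.02-fold higher (0.0242). Il33, an alarmin cytokine, had 6.34, 6.16 and 6.53 log2 CPM in SD and 7.02, 7.04 and 7.11 in wild-type libraries (1.64-fold lower, adjusted p = 0.0273), and Ccl12 had 0 reads in SD and 25 in wild-type libraries (at least 7.35-fold lower, taking 3 reads summed over SD as the floor). The calls of Hgf (adjusted p up to 0.139) and Il33 (up to 0.115) each ended without any of 5 libraries, all but SD replicate 2 for Hgf and all but SD replicate 3 for Il33. The Ptgs1 call ended without any but SD replicate 2 and wild-type replicate 3 (up to 0.139), and that of Ccl12 without any of the 6 (up to 0.115).

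Of 38 matrix protein genes other than collagens, Tnn and the secreted protein gene Ccdc80 (1.38-fold, adjusted p = 0.00736) rose and Matn2 fell (0.673 of the wild-type level, 0.0484), with a median of 0.02, and of 27 collagen genes 0 were called (median 0.02). Igfbp3, which binds insulin-like growth factors, rose 1.75-fold (adjusted p = 0.0205) in a list of 16 (median 0.18). Among 12 cartilage and bone genes the transcription factor genes Runx2 (2.74-fold, adjusted p = 0.0117) and Sox9 (2.2-fold, 0.0188) rose and 0 fell (median 0.63). Runx2 had 4.90, 4.52 and 5.17 log2 CPM in SD, against 3.75, 3.21 and 3.27 in wild-type libraries, and Sox9 had 5.60, 5.50 and 5.44 in SD, against 4.64, 4.40 and 4.10. Neither gene overlapped. Scx, a tendon bHLH factor, had 5.00, 4.83 and 5.32 log2 CPM in SD, against 3.53, 3.53 and 4.02 in wild-type libraries (2.56-fold higher, adjusted p = 0.00172). Meox1 and Alx1 were the 2 calls among 35 homeobox and T-box genes (median 0.17), and Cd36, higher, and the apolipoprotein gene Apoe, 4.01-fold lower, those among 17 lipid uptake genes (median -0.14). The calls of Ccdc80, Igfbp3, Runx2, Sox9, Apoe and Matn2 each ended without at least 2 of the 6 libraries left out in turn (adjusted p up to 0.0671, 0.115, 0.0693, 0.109, 0.116 and 0.211), which were replicate 3 of both groups for Ccdc80, those and wild-type replicate 2 for Runx2, SD replicate 3 and any wild-type library for Igfbp3, any but wild-type replicate 1 for Sox9, any but SD replicate 2 and wild-type replicate 3 for Apoe, and any of the 6 for Matn2.

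Genes of macrophages fell in larger number than any other list. Of 26 macrophage and immune genes, 20 fell, 0 rose and 0 had a positive change (median -2.59). Their summed level was 31.97, 75.27 and 67.3 CPM in SD, against 429.4, 269.1 and 281.1 in wild-type libraries, with SD replicate 1 the lowest of all. Csf1r, the receptor for macrophage colony-stimulating factor, had 32, 65 and 53 reads in SD, against 495, 395 and 325 in wild-type libraries (7.31-fold lower, adjusted p = 0.00145). The mannose receptor gene Mrc1 (8.96-fold), the fractalkine receptor gene Cx3cr1 (8.24-fold) and the complement genes C1qa (8.99-fold) and C1qb (8.05-fold) fell alongside, with adjusted p of 0.000983 to 0.0019. Ptprc, the pan-leukocyte gene CD45, had 3, 6 and 6 reads in SD, against 49, 27 and 47 in wild-type libraries, and the protease gene Ctss and the GTPase gene Rac2 fell 10.5-fold and 7.77-fold. In bulk samples fewer cells of a type and less RNA per cell cannot be told apart. All these libraries were sorted for stromal cells, a step meant to remove macrophages, and carry-over through the sort was not tested. Leaving out replicate 1 of either group lowered the count to 9 and 11 of the 26, and log2(CPM + 1) to 12.

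Endothelial genes fell less evenly: 10 of 25 were lower and 0 higher (median -2.84), beside 2.07% and 1.33% of all genes. Pecam1, an adhesion gene of all endothelium, had 5, 3 and 5 reads in SD, against 115, 178 and 114 in wild-type libraries (adjusted p = 0.00656), and Kdr, the VEGF receptor 2, had 6, 10 and 11 in SD, against 115, 187 and 166 (0.019). Flt1, the VEGF receptor 1, had 2, 2 and 3 reads in SD and 42, 42 and 51 in wild-type libraries, Tie1 had 7, 6 and 9 in SD and 66, 113 and 67 in wild-type libraries, and Vwf had 7, 0 and 9 in SD and 38, 36 and 26 in wild-type libraries. Icam2 had 1 read in SD and 45 in wild-type libraries in total, 39.7-fold lower with an interval of 6.77 to 1600. Cdh5, the endothelial cadherin gene, had 14, 15 and 29 reads in SD and 178, 195 and 154 in wild-type libraries without passing the test (-3.05 ± 0.98, adjusted p = 0.0933). Its standard error reflects all 24 libraries, and in a fit of the 6 libraries alone, where 15 of the 25 were lower and 2 higher, it passed. A positive change was measured for 3 listed genes, among them the sialomucin gene Emcn, with 4.95, 4.73 and 5.53 log2 CPM in SD and 4.07, 3.73 and 4.34 in wild-type libraries (adjusted p = 0.326), and Ramp2, with 5.72, 5.34 and 5.78 in SD and 4.92, 5.04 and 5.09 in wild-type libraries (0.243). The summed level of the list was 162.8, 134.1 and 225 CPM in SD, against 272.7, 285.6 and 274.9 in wild-type libraries. Leaving out SD replicate 1 or 2, or any wild-type library, lowered the count to between 5 and 6 of the 25, and log2(CPM + 1) to 4. The call of Kdr ended without wild-type replicate 2 or 3 or SD replicate 1 (adjusted p up to 0.0922), that of Vwf without wild-type replicate 1 (0.0516), that of Icam2 without any but SD replicate 3 and wild-type replicate 2 (up to 0.0764), and those of Flt1 and Tie1 without any of the 6 (up to 0.0964 and 0.131).

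Erythroid sums were lower in all 3 SD libraries, and the size of the difference depended on 1 wild-type library. Their summed level was 108.5, 127.7 and 130.3 CPM in SD, against 179.5, 155.1 and 1325 in wild-type libraries, the last being wild-type replicate 3. Of 13 listed genes, the transferrin receptor gene Tfrc (1.4-fold lower, adjusted p = 0.0182) and Hbb-bh1, an embryonic globin gene, fell, and Epor, the erythropoietin receptor gene, rose (1.82-fold, 0.0086; median of the list -0.76). The globins Hba-x (-4.06 ± 1.38, adjusted p = 0.122) and Hbb-y (-3.01 ± 1.35, 0.293) were highest in wild-type replicate 3 among the 6 libraries. The calls of Tfrc and Hbb-bh1 ended without replicate 3 of either group or SD replicate 1 (adjusted p up to 0.131 and 0.201). That of Epor held whichever library was left out.

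Macrophage, endothelial and erythroid sums were thus lower in SD, and the erythroid sum was far higher in 1 wild-type library than in the others. The part of these 3 lists in the other results was not tested one by one. With the mean levels of these 3 lists added to the model as covariates, 156 genes were called higher and 84 lower, and 123 of these were among the 469. Weighting each value by its read depth, as voom does, gave 120 higher and 73 lower, and 0 of the 26 macrophage and 0 of the 25 endothelial genes. Of the 142 genes named in this report, 64 lost their call with the covariates and 5 changed sign. With voom weights 52 lost their call. Those still called under both included Axin2, Lef1, Tcf7, Lgr4, Fzd8, Rspo3, Thy1, Alx1, Pdlim5, Meox1, Tcf21, Stra6, Cyp26b1, Nrp1 and Fat3. Whether cell mixture has a part in their changes was not tested.

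**Figure D4:**
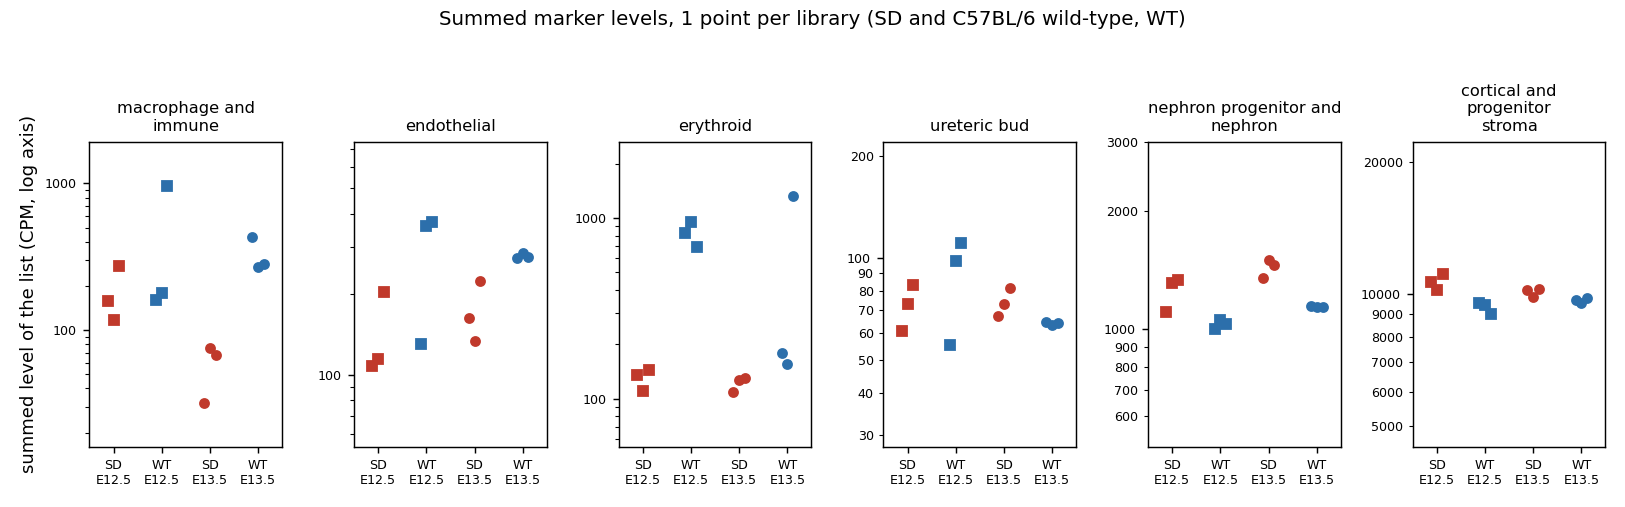
Summed levels of 6 marker lists in CPM (vertical log axes, each with its own range), with 1 point per library for SD and C57BL/6 wild-type (WT) stroma at E12.5 (squares) and E13.5 (circles). At E13.5 the macrophage, endothelial and erythroid sums are lower in all 3 SD libraries. The erythroid sum of 1 wild-type library is 1325 CPM, and the cortical stroma sums differ little.

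The lists of other programmes differed in their calls. In the nephron progenitor list 3 of 21 genes rose (Meox1, Dkk1 and Sall1) and 0 fell (median 0.32), beside 1.33% and 2.07% of all genes. Six2, the gene that defines these progenitors, had 3.06, 5.18 and 3.95 log2 CPM in SD and 3.32, 3.93 and 3.97 in wild-type libraries (adjusted p = 0.883). By limma 0 genes were called among 17 of the ureteric bud, 13 of neurons and neural crest, 9 of liver and gut, 4 of skeletal muscle, 24 immediate early genes and 24 of hypoxia and glycolysis, with list medians of 0.01, -0.22, -0.76, 0.22, 0.12 and -0.16. Among 31 cell cycle genes Cdkn1c rose and Mycn fell (median -0.09). Mycn, a growth regulator of the Myc family, had 6.89, 6.78 and 6.77 log2 CPM in SD, against 7.28, 7.37 and 7.42 in wild-type libraries (1.45-fold lower, adjusted p = 0.0114), a call that ended without replicate 3 of either group (up to 0.0578).

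The same loss was measured 1 day earlier in 3 SD and 3 wild-type C57BL/6 libraries of E12.5, which share no library with E13.5. Wild-type replicate 3 of E12.5 had a summed level of liver and gut genes of 4818 CPM. The other wild-type libraries of that stage had 18.81 and 15.99 CPM, and the SD libraries 8.549 to 18.77 CPM. The part of this library in the E12.5 counts and in the stage difference was not tested. There limma called 136 genes higher (0.985%) and 101 lower (0.732%). Shared calls came to 63 higher, 34.4% of those at E13.5 and 46.3% of those at E12.5, and to 60 lower, 21.0% and 59.4%, with 0 in opposite directions. Of the genes called at E13.5, 176 of the 183 higher and 272 of the 286 lower had a change of the same sign at E12.5. Over all 13803 genes the change was below 0 in 6905 at E13.5 and in 6869 at E12.5. The share of all genes with the same sign at both stages was not computed. Pdlim5 changed by 1.29 at E13.5 and 1.15 at E12.5, Fzd8 by 1.22 and 1.23, Rspo3 by 0.98 and 0.94, Mgp by 1.40 and 1.41, and Fat3 by 1.54 and 1.57, all called at both stages. Thy1 changed by -3.79 and -2.94, Tcf21 by -1.31 and -1.44, Axin2 by -1.01 and -1.03, and Myocd by -2.08 and -2.37, also called at both.

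Other genes had a call at E13.5 but not at E12.5. Scube1 changed by 1.01 at E13.5 and 0.33 at E12.5, Plxna2 by 1.11 and 0.30, Adamts17 by -1.30 and -0.37, Tgfb3 by -0.78 and -0.07, and Cntnap5b by 3.00 and -0.62. Asb4, a ubiquitin ligase adaptor gene, had 8.10, 8.0 and 7.96 log2 CPM in SD and 6.93, 7.02 and 6.93 in wild-type libraries at E13.5, a change of 1.07, against 0.11 at E12.5. A call at 1 stage alone does not show a difference between stages. The test of that difference called 0 genes higher and 0 lower (0% each, limma), with a smallest adjusted p of 0.292 and 753 genes at an unadjusted p under 0.05. The macrophage sum at E12.5 was 116.8 to 272.0 CPM in SD and 159.5 to 964.6 CPM in wild-type libraries, and 0 of the 26 genes were called there. The highest of these sums was that of wild-type replicate 3, the library with the high liver and gut sum. Erythroid sums at E12.5 were 110.4 to 143.8 CPM in SD and 692.6 to 949.8 CPM in wild-type libraries.

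Stabilised beta-catenin offers the opposite perturbation at the same stage, in another strain and with its own CD1 controls. Comparing SO with its wild-type group, limma called 1177 genes higher (8.53%) and 943 lower (6.83%). Of the 286 genes lower in SD, 75 were higher in SO (26.2%) and 22 lower (7.69%). Of the 183 genes higher in SD, 56 were lower in SO (30.6%) and 28 higher (15.3%). As shares of the SO calls these are 6.37%, 2.33%, 5.94% and 2.38%. The test of the difference between the SD and SO effects called 732 genes higher (5.3%) and 1001 lower (7.25%), and 344 of the 469 genes called in SD were among them. In the Wnt target list 18 of 31 genes rose in SO and 0 fell, with a median change of 1.69.

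Genes of opposite direction included Wnt targets and stromal regulators. Apcdd1 changed by -1.08 in SD and 4.96 in SO, Lef1 by -3.79 and 3.95, Axin2 by -1.01 and 3.73, Tcf7 by -1.93 and 3.22, and Tnfrsf19 by -1.64 and 4.73. For Alx1 the changes were -5.06 in SD and 3.19 in SO, for Thy1 -3.79 and 2.20, for Tcf21 -1.31 and 1.24, for Stra6 -1.07 and 1.19, for Pdgfc -1.47 and 1.83, and for Lgr4 -0.96 and 1.02. Each of these 11 genes was called in SD, in SO and in the test of the difference (adjusted p up to 1.66e-06 in the last). In the other direction Meox1 changed by 1.88 in SD and -1.77 in SO, Chl1 by 1.90 and -1.96, Tmem132e by 1.83 and -1.34, Scx by 1.36 and -1.86, Fzd8 by 1.22 and -0.63, Ephb2 by 0.48 and -0.49, and Sall1 by 0.39 and -2.14. RefSeq windows held the TCF and LEF letters in 12 of 56 genes lower in SD and higher in SO (21.4%) and in 6 of 41 of the reverse kind (14.6%), against 1448 of 10739 of all.

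Not every gene was mirrored. Pcdh9 rose in both, by 1.61 in SD and 1.92 in SO (adjusted p of the difference 0.582), as did Mgp, by 1.40 and 1.03 (0.413), Runx2, by 1.45 and 2.80 (0.0573), and Epha4, by 0.87 and 1.55, where the difference was called (0.0321). Cyp2s1 fell in both, by 2.0 and 1.44 on the log2 scale (0.333), as did Slc16a1, by 0.94 and 0.67 (0.317), Tgfb3, by 0.78 and 0.80 (0.961), and Plch1, by 1.24 and 3.13 (4.51e-06). Pdlim5, the rise with the smallest p in SD, changed by -0.01 in SO (adjusted p = 0.96), and Scube1 by 0.01 (0.985). For these 2 genes the difference between the lines was called (adjusted p = 2.45e-06 and 0.000653).

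**Figure D5:**
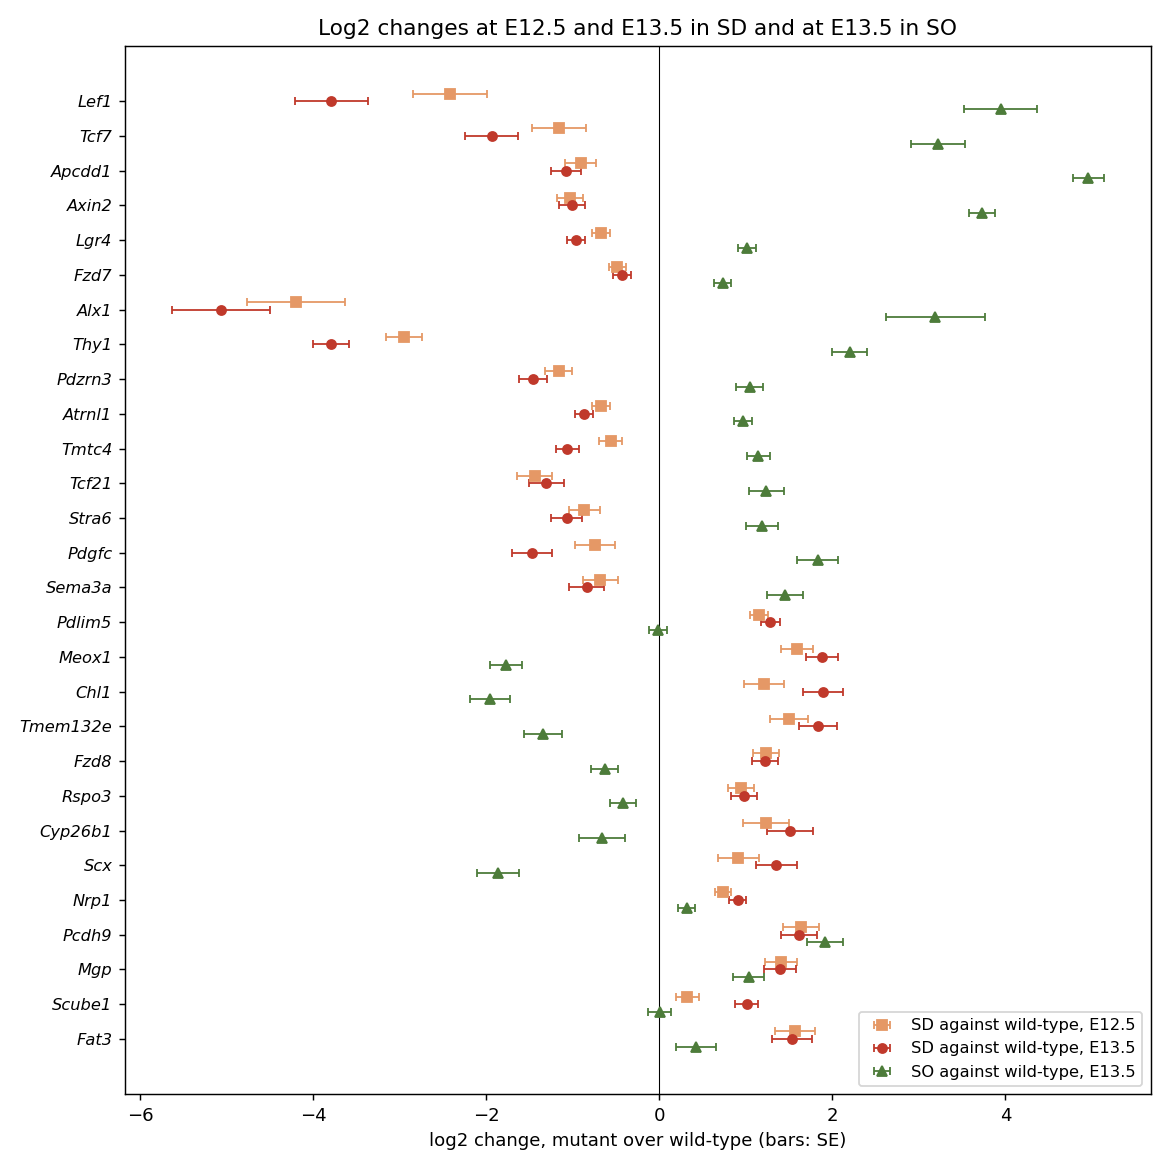
Log2 change of mutant over wild-type (horizontal axis, bars SE) for 28 named genes in SD at E12.5 (squares), SD at E13.5 (circles) and SO at E13.5 (triangles). The 2 stages of SD lie on the same side of 0 for every gene shown; SO lies on the opposite side for the Wnt targets, Alx1, Thy1 and Tcf21 and for Meox1, Chl1 and Scx, and on the same side for Pcdh9, Mgp, Nrp1 and Fat3.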

How the data were processed

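The deposited values are log2 CPM on the scale of voom, with TMM-scaled library sizes, per the submitters' processing notes and the values themselves. The submitters' processing notes name HISAT2, HTSeq, limma and mm10 with no versions. For the strand setting and any filter on low genes, the sources used here give nothing. Read numbers were computed back from the deposited values (100% within 0.1 of a whole number). The values were fitted with limma 3.58.1 in R 4.3.3, as 8 group means over 24 libraries, with empirical Bayes moderation and a mean-variance trend (16 residual and 6.43 prior degrees of freedom). A gene needed at least 3 libraries above a log2 CPM of 0, which removed 0 genes. Tests were 2-sided and p was adjusted by Benjamini-Hochberg over 13803 genes, with calls under 0.05 and no minimum fold. The fit was also run on simulated data with independent noise in each library. That run does not cover shifts that many genes share within a library.

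The comparison, the 32 gene lists, the markers and the rule for naming genes were chosen with earlier results of these data known. The rule took the 15 largest changes and the 12 smallest p each way among called, non-overlapping genes with a mean above 1 log2 CPM, the called members of each list with the smallest p (or uncalled ones where few were called), the largest called stage differences (there were 0), the strongest opposite changes in SD and SO, and always Alx1, Nkd1, Lef1, Axin2, Foxd1 and Ctnnb1. Aldh1a2, Asb4, Cdh5, Cntn1, Emcn, Ephb2, Flt1, Hba-x, Hbb-y, Prickle1, Ptprc, Ramp2, Sema3a, Six2, Lyve1, Srm and the genes of ribosome assembly and chaperones fall outside the rule and were named after their values were seen. Ratios of summed reads carry exact 95% intervals, which cover counting error only, since these reads have no molecular identifiers. Positions come from GENCODE M21 (13681 of 13803 symbols matched, 99.1%), and near-identical loci from BLAST 2.17.0 (at least 95% identity over 200 bases). Because strand is not given, reads of Ctnnb1, Axin2, Lef1, Rspo3, Fzd5, Bcl9l, Cyp2s1, Npr1, Tgfb3, Pdgfc, Runx2, Cx3cr1 and Csf1r cannot be told apart from those of genes overlapping on the other strand, and Afdn, Etv5 and Sema3a each have 1 near-identical locus. Python 3.11.15 and matplotlib 3.10.9 drew the figures.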

Additional observations from a re-analysis of the deposited data

How the results depend on the processing

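The 469 calls of SD against wild-type at E13.5 became 193 with voom weights (120 higher, 73 lower), 240 with the 3 marker lists as covariates (156 higher, 84 lower) and 894 with array weights (395 higher, 499 lower); the cause was not tested. Thus lower genes outnumbered higher ones in the reported fit, and the order turned with voom weights and with the covariates. Leaving out 1 library gave 244 to 370 calls. The other alternatives stayed within 1.5 times of the reported count: 384 with log2(CPM + 1) (186 higher, 198 lower), 435 with a stricter filter (189 and 246), 486 in the 6 libraries alone (220 and 266), 324 in the 12 C57BL/6 libraries (157 and 167), 321 without a trend (129 and 192), 443 with values centred on the median gene (155 and 288), and 397 with quantile normalisation (160 and 237). No filter gave the same 469. Foxd1 (-0.25), Apoe (0.39), Lyve1 (0.39) and Cdh5 (0.43) changed sign with the covariates, as did Aldh1a2 (-0.047), and Six2 with array weights (-0.030) and without SD replicate 2 (-0.24; 0.82 without SD replicate 1). A replicate block gave 506 calls at E13.5 and 1 call, Asb4, in the difference between stages. Deviations of libraries with the same number had r = -0.0904, -0.0196 and 0.04, and those with unlike numbers reached 0.154 and -0.115. These values give no sign of pairing by number, but with 3 libraries a group they cannot exclude shared litters or preparation. Depth limits genes with few reads: 95 of the 286 lower genes had a mean under 0 log2 CPM in SD.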

Other observations

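Some genes of ribosome assembly fell in SD at E13.5. In a list of 76 such genes, written after the values were seen and so no independent evidence of a direction, 9 were lower and 0 higher, beside 2.07% and 1.33% of all genes. The median change was -0.20 and the change was below 0 in 74 of 76, beside a median of -3.59e-05 and 6905 of 13803 below 0 over all genes. Ncl, which encodes nucleolin, had 10.20, 10.21 and 10.19 log2 CPM in SD, against 10.47, 10.41 and 10.51 in wild-type libraries, 1.2-fold lower with no overlap (adjusted p = 0.0192, limma). Nhp2, a part of the complexes that modify ribosomal RNA, was 1.42-fold lower (adjusted p = 0.00656), Noc2l 1.25-fold (0.00789), Rrs1 1.28-fold (0.0395), Tsr1 1.27-fold (0.0319), Mybbp1a 1.22-fold (0.0323), Pa2g4 1.18-fold (0.0324) and Nop2 1.23-fold (0.0492). At E12.5 the median of the list was -0.08 with 0 genes called and 55 of 76 below 0, beside 6869 of 13803 over all genes. In SO at E13.5 the median was -0.03, with 5 of 76 lower and 0 higher. Over all genes 6.83% were lower and 8.53% higher in SO, so the 5 lower genes are near the background. The Nhp2 call held whichever library was left out, and that of Noc2l ended without SD replicate 3 (adjusted p = 0.0687). The calls of Nop2 and Mybbp1a ended without any of 5 libraries (up to 0.23 and 0.188), that is all but wild-type replicate 1 for Nop2 and all but SD replicate 2 for Mybbp1a. Those of Ncl (replicates 1 and 3 of both groups, up to 0.103), Rrs1 (replicates 2 and 3 of both groups, up to 0.252), Tsr1 (SD replicates 2 and 3, wild-type replicates 1 and 3, up to 0.156) and Pa2g4 (SD replicates 1 and 2, wild-type replicates 2 and 3, up to 0.195) ended without any of 4.

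In a list of 14 chaperonin and mitochondrial chaperone genes, likewise written after the values were seen, 3 were lower and 0 higher, beside the same shares of all genes. The change was below 0 in 14 of 14 (median -0.14), beside the same 6905 of 13803. Hspe1, the mitochondrial co-chaperonin, had 7.01, 6.95 and 7.06 log2 CPM in SD, against 7.33, 7.40 and 7.35 in wild-type libraries (1.28-fold lower, adjusted p = 0.0183), and Hspd1, its partner, was 1.16-fold lower (0.0435). Srm, which makes the polyamine spermidine, was 1.28-fold lower (adjusted p = 0.0177). Each of these calls ended without some single library: SD replicates 1 and 2 and wild-type replicates 2 and 3 for Hspe1 (adjusted p up to 0.0812), any but SD replicate 1 for Hspd1 (up to 0.188), and SD replicate 2 or wild-type replicate 2 or 3 for Srm (up to 0.0837).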
